A study of Triticum aestivum with 3 samples.

Results

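Gene-to-gene loops (GGLs) are Hi-C contacts that join 2 bins each holding a gene. Among the genes joined by GGLs in wheat shoots, 571 carried a peak of the repressive mark H3K27me3 and no peak of the active marks H3K36me3 and H3K9ac, out of 2060 looped genes in the supplied stretch of the loop table and 165276 genes quantified by RNA-seq. They were chosen by these 3 marks alone, a mark counting when any interval of the gene had it, and transcription, RNA polymerase II (RNAPII), H3K4me3, length and loop partners did not enter the choice. They are called H3K27me3 genes here. The supplied stretch runs through chromosome 1A and into the first part of 1B, with partners further along 1B, and the 571 genes split into 360 on 1A and 211 on 1B.

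The study mapped how the hexaploid wheat genome is folded in the nucleus and asked how contacts between genes relate to histone marks and transcription. Its RNA-seq consists of a single group, shoots of wild-type Chinese Spring seedlings, the cultivar of the wheat reference genome, with 3 biological replicates and no treatment. The seedlings were 12 days old by the methods and the source label, and 14 days old by the stage label. Poly(A) RNA was sequenced from whole shoots, and the 3 libraries held 75465873, 76337649 and 67470696 estimated counts in replicates 1, 2 and 3.

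H3K27me3 is deposited by Polycomb repressive complex 2 and marks facultative heterochromatin, in which genes are kept silent in some tissues or stages and used in others. H3K4me3 sits at the start of genes and usually accompanies transcription, but in plants as in animals it can share a gene with H3K27me3. H3K36me3, laid down along the body of transcribed genes, and H3K9ac, an acetylation near their start, go with active transcription, and an RNAPII peak shows that polymerase is bound to the gene, whether or not it completes a stable transcript. In whole shoots, the marks and the RNA of a gene can come from different cells, and fewer cells using a gene cannot be told apart from less RNA per cell. By the methods, the histone mark data came from an earlier wheat study, so these marks and the RNA were measured on different samples.

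The H3K27me3 genes were mostly free of RNAPII. A peak of RNAPII lay on 154 of the 571 genes and a peak of H3K4me3 on 256, with 98 genes carrying both and 259 carrying neither. RNAPII thus lay on 26.97% of them, against 74.5% of the other looped genes, and H3K4me3 on 44.8%, against 66.6%. High-confidence (HC) genes made up 352 of them (61.6%, against 74.6% of the other looped genes) and low-confidence (LC) genes 219. By the study's methods, LC genes were kept in the annotation where they overlapped a peak of H3K9ac, H3K36me3 or H3K27me3, so the LC genes are not a sample of all LC genes. In the loop table, however, 77 LC genes had none of the 5 marks and 58 had RNAPII or H3K4me3 alone, so the table's marks do not match that rule for every LC gene. RNAPII lay on 33.8% of the HC genes and 16.0% of the LC genes, and H3K4me3 on 54.5% of the HC and 29.2% of the LC genes. Their longest transcripts ranged from 144 to 6236 bases with a median of 1003 bases. The marks were unevenly spread over the supplied stretch. H3K4me3 lay on 57.5% of the H3K27me3 genes on 1A and 23.2% of those on 1B. RNAPII lay on 31.1% of those on 1A and 19.9% of those on 1B. Within 1A, RNAPII lay on 26.8% of them in the first 50 Mb and beyond 500 Mb, against 47.9% in between. The stretch covers chiefly the first part of 1B, so chromosome and position cannot be told apart. Genes are given by identifier, because the gene table used here matched 0 of the 571 identifiers, and the labelled tissue was not checked against marker genes for the same reason.

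Transcripts were found for 150 of the 571 H3K27me3 genes, taking a gene as expressed when the median of its 3 TPM values (a length-scaled share of the library's transcripts) was above 0. The same rule called 61.3% of all quantified genes, 67.3% of all HC genes, 50.9% of all LC genes and 72.7% of the other looped genes. In the libraries taken alone, 147, 159 and 164 of the H3K27me3 genes had reads (25.7, 27.8 and 28.7%, against 72.4, 72.3 and 74.2% of the other looped genes). Of the 1489 other looped genes, 1012 were detected in all 3 libraries and 325 in none. Among them, the 244 with none of the 5 marks had 35 genes detected in all 3 libraries and 167 in none. Of the 571 genes, 117 were detected in all 3 libraries, 33 in 2, 53 in 1 and 368 in none. For these 368 genes, a count of 0 in a library allows up to 3 counts, which would be worth a median of 0.0567 TPM and at most 1.44 TPM, a limit that covers counting error only.

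Most of the transcribed H3K27me3 genes were transcribed at a very low level. The median TPM of the 150 expressed genes was 0.0823, with quartiles of 0.0327 and 0.334 and a range of 0.00340 to 26.4. Of these, 107 reached 3 estimated counts in the median replicate (18.7% of the 571 genes, against 53.8% of all genes and 66.0% of the other looped genes). A count of 10 was reached by 66, against 874 of the 1489 other looped genes, and a count of 100 by 18. A median TPM of at least 0.1 was reached by 69 genes (12.1%, against 49.2% of all genes and 59.9% of the other looped genes), of at least 1 by 23 genes and of at least 5 by 4 genes. At TPM of at least 1, the H3K27me3 genes stood at 4.03%, against 30.3% of all genes and 40.8% of the other looped genes. For 100 counts and for TPM of at least 5, the share of other genes is not given here. The summed TPM of all 571 genes was 112, 121 and 83.9 in replicates 1, 2 and 3, and the gene with the highest median held 24.8% of the summed median TPM, the leading 10 genes 62.1%.

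The highest transcript level belonged to TraesCS1A02G042700 (chromosome 1A, 23339466 to 23340670 in IWGSC RefSeq v1.0), an HC gene with both RNAPII and H3K4me3 peaks. It had 29.9, 26.4 and 12.5 TPM in replicates 1, 2 and 3 (22.9 ± 9.20, SD, n = 3). TraesCS1B02G003400 (chromosome 1B, 2099726 to 2110805), with RNAPII and no H3K4me3, had 10.6, 8.72 and 6.95 TPM (8.76 ± 1.83, SD, n = 3). These 2 genes kept a high level in every library and rested on 1839 and 2088 estimated counts in the median replicate.

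Next came TraesCS1A02G264500, with both peaks, at 6.16, 6.67 and 0.934 TPM. TraesCS1A02G523400LC, with neither peak, was listed at 5.99, 7.70 and 0.478 TPM, but its transcript has 144 bases and its median value rested on 13.0 estimated counts. Both were low in replicate 3, and their place in the order rests on the other 2 libraries. TraesCS1A02G262700 had 4.11, 4.403 and 2.47 TPM and TraesCS1A02G350900 3.76, 6.81 and 2.02 TPM, both genes carrying RNAPII and H3K4me3. The ranges of these genes over the libraries overlap, so their order is not resolved beyond the spread between replicates.

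Genes without an RNAPII peak were also among those with clear transcripts. TraesCS1B02G043900, an HC gene with neither RNAPII nor H3K4me3, had 2.12, 3.33 and 3.14 TPM and 285 estimated counts in the median replicate. TraesCS1A02G353500, of the same class, had 2.22, 2.57 and 0.725 TPM on 29.0 counts. With H3K4me3 and no RNAPII, TraesCS1B02G063700 had 2.73, 3.25 and 2.70 TPM. Its ratio of highest to lowest value, 1.20, was the smallest of the genes plotted by abundance. TraesCS1A02G084600, also with H3K4me3 and no RNAPII, stood at 1.71 and 1.17 TPM in replicates 1 and 2 and at 8.68 TPM in replicate 3. Transcripts at 1 TPM and above were thus found in HC genes of both classes without RNAPII. Among LC genes, TraesCS1A02G607200LC, without RNAPII, had 2.80, 4.08 and 2.30 TPM. The 2 leading LC genes with RNAPII were TraesCS1A02G062100LC, at 1.69, 1.97 and 0.884 TPM, and TraesCS1B02G014400LC, at 0.3802, 0.652 and 0.299 TPM. TraesCS1B02G016400, an HC gene with RNAPII and no H3K4me3, had 2.10, 1.78 and 0.331 TPM.

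**Figure D1:**
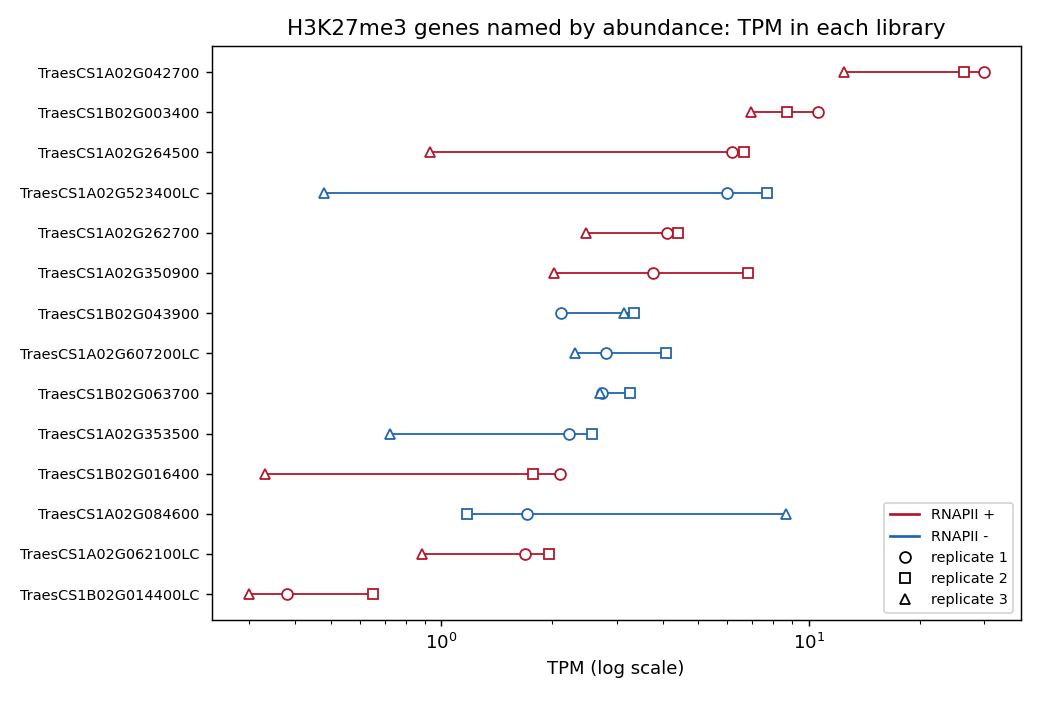
TPM on a log scale (x axis) of the H3K27me3 genes named for their abundance overall or within a class of peaks (y axis), with 1 symbol per replicate and a line over their range, coloured by RNAPII peak. TraesCS1A02G042700 leads with 12.5 to 29.9 TPM, and the range of most other genes overlaps that of their neighbours.

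H3K27me3 genes with an RNAPII peak were transcribed more often than those without one. Transcripts were found for 71 of 154 genes with RNAPII (46.1%) and 79 of 417 genes without it (18.9%). By library, the shares were 44.8, 46.1 and 48.1% with RNAPII, against 18.7, 21.1 and 21.6% without it. The ranges did not overlap and the difference was 25.9 ± 0.764 percentage points (SD over 3 libraries), larger than the spread between replicates. An exact two-sided sign-flip permutation over 3 libraries cannot go below p = 0.25, the value for every difference here with the same sign in all libraries, and it measures only the spread between these samples. The SD over libraries likewise leaves out the error that comes from the number of genes.

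The RNAPII difference was larger among HC genes than among LC genes. Among HC genes, transcripts were found for 60 of 119 with RNAPII (50.4%) and 31 of 233 without (13.3%), and the library shares were 46.2, 50.4 and 52.9% with RNAPII against 13.3, 16.3 and 19.7% without. The difference was 33.4 ± 0.626 points. Among LC genes, transcripts were found for 11 of 35 with RNAPII (31.4%) and 48 of 184 without (26.1%), and the difference was 14.5, 4.25 and 7.52 points in replicates 1, 2 and 3. The HC difference exceeded the LC difference by 18.5, 29.9 and 25.7 points (24.7 ± 5.77, exact sign-flip permutation p = 0.25, n = 3). At TPM of at least 1, 10 of the 119 HC genes with RNAPII and 4 of the 233 without it were called, a difference of 6.69 points, while the LC difference was -1.49 points. The LC value rests on 35 genes with RNAPII and was not stable. It was 10.7 points without replicate 2 and 15.3 points without replicate 3, against 5.34 points by the median of all libraries, and on 1B alone it was -8.35 points.

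RNAPII peaks often stood on H3K27me3 genes with no transcript. Of the 119 HC genes with RNAPII, 51 had 0 counts in all 3 libraries, and 35 of these also carried H3K4me3. Of all 119, H3K4me3 lay on 67.2%. The longest of these 35 genes were TraesCS1A02G344400 with a transcript of 3131 bases (1A, 532435613 to 532440396), TraesCS1A02G343200 with 3060 bases (1A, 531864981 to 531870330) and TraesCS1B02G006000 with 2798 bases (1B, 3881677 to 3884665). At their lengths, 3 counts in a library would be worth at most 0.0136, 0.0140 and 0.0154 TPM. These limits lie under 0.0327 TPM, the lower quartile of the 150 expressed genes. Other HC looped genes with RNAPII were less often at 0 counts in all libraries. This held for 24 of 107 without H3K27me3, H3K36me3 and H3K9ac, and for 9 of 73 with H3K27me3 and H3K36me3 or H3K9ac. Without H3K27me3, it held for 11 of 134 with an incomplete set of active marks and 2 of 549 with both H3K36me3 and H3K9ac.

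By H3K4me3 the genes differed little, and less so within a class of RNAPII. Transcripts were found for 73 of 256 genes with H3K4me3 (28.5%) and 77 of 315 genes without it (24.4%), a difference of 2.90, 2.63 and 7.42 points in replicates 1, 2 and 3 (4.32 ± 2.69). RNAPII lay on 38.3% of the genes with H3K4me3 and 17.8% of those without. Among HC genes with RNAPII, 41 of 80 with H3K4me3 and 19 of 39 without it were expressed, and the difference changed sign between libraries (3.91, -5.10 and 2.47 points). Among HC genes without RNAPII, 14 of 112 with H3K4me3 and 17 of 121 without it were expressed, and the difference was -3.27, -3.90 and 4.97 points. Neither of these differences exceeded the spread between replicates. The difference over all genes was 6.78, 6.73 and 1.87 points without replicates 1, 2 and 3, and it was -1.27 points at TPM of at least 0.5.

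**Figure D2:**
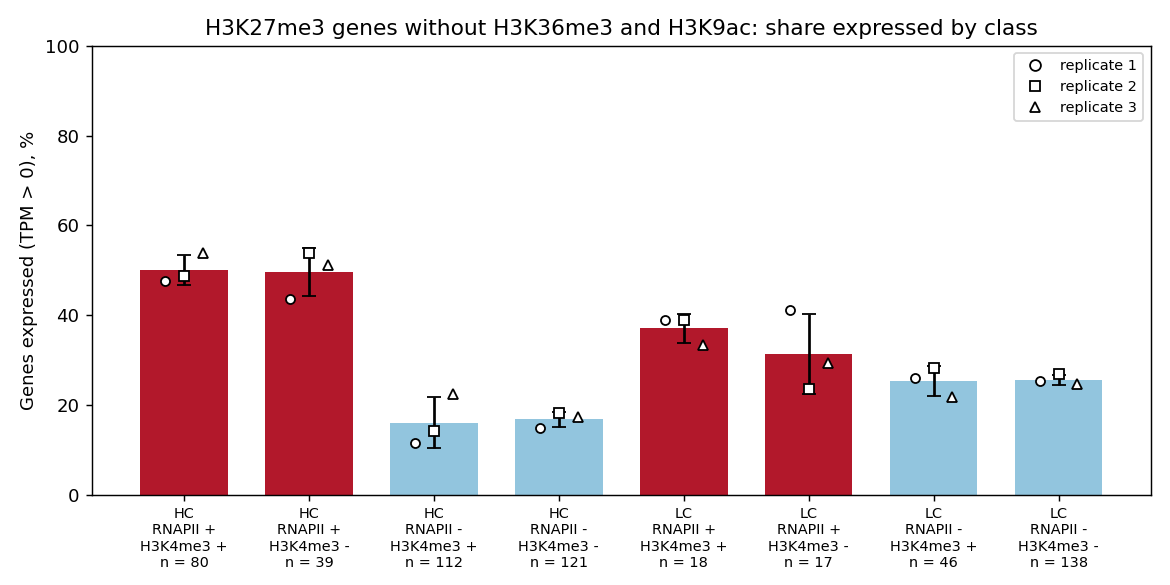
Share of H3K27me3 genes with TPM above 0 (y axis, percent) in the 8 classes of confidence, RNAPII and H3K4me3 (x axis, with the number of genes), as mean and SD over 3 libraries with each replicate as a symbol. The HC classes with RNAPII have library means of at least 49.6%, and those without RNAPII of at most 16.8%.

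The confidence class by itself did not sort the transcribed genes. Transcripts were found for 91 of 352 HC genes (25.9%) and 59 of 219 LC genes (26.9%), and the difference was -3.42, -0.0130 and 5.85 points in replicates 1, 2 and 3. It was 2.81 and 1.90 points without replicates 1 and 2 and -3.05 points without replicate 3, so its sign was not settled. The classes differed in opposite directions by RNAPII state. With RNAPII, HC genes exceeded LC genes by 6.22, 19.0 and 21.5 points, and without RNAPII they were lower in each library, by -12.2, -10.9 and -4.17 points. The median estimated count of the expressed genes was 11.1 for HC and 4.00 for LC genes, and 73 of the 352 HC and 34 of the 219 LC genes reached 3 counts.

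Longer genes were more often called transcribed. By quartile of the longest transcript, with boundaries at 525, 1003 and 1506 bases, transcripts were found for 23 of 143, 30 of 143, 40 of 142 and 57 of 143 genes from the shortest to the longest. The library means were 17.5 ± 3.20, 21.7 ± 1.40, 30.0 ± 2.26 and 40.6 ± 0.699% (SD, n = 3), and the longest exceeded the shortest quartile by 27.3, 22.4 and 19.6 points in replicates 1, 2 and 3. The same sign was seen among HC genes (23.5, 16.3 and 5.60 points) and among LC genes (55.6, 37.9 and 40.0 points).

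Length moved together with RNAPII, confidence class and the level that a read is worth. RNAPII lay on 10.5, 21.7, 32.4 and 43.4% of the genes from the shortest to the longest quartile, and HC genes made up 35.7, 52.4, 75.4 and 83.2%. The median TPM of the expressed genes was 0.343, 0.0597, 0.109 and 0.0557 in the same order, and the genes at TPM of at least 1 numbered 8, 2, 8 and 5. At that cut the difference between the longest and the shortest quartile was -2.10 points. Among genes without RNAPII, the shares were 17.2 ± 2.82, 18.8 ± 1.55, 20.1 ± 3.01 and 28.4 ± 2.14%, and among genes with RNAPII 20.0 ± 6.67, 32.3 ± 3.23, 50.7 ± 1.26 and 56.5 ± 1.61%. The RNAPII difference was 2.81 ± 3.99 points in the shortest quartile, with mixed signs over 15 genes with RNAPII, and 13.5 ± 3.58, 30.6 ± 2.62 and 28.1 ± 3.63 points in the next 3. Genes with more than 1 annotated transcript were expressed in 12 of 27 cases, against 138 of 544 genes with 1 transcript.

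**Figure D3:**
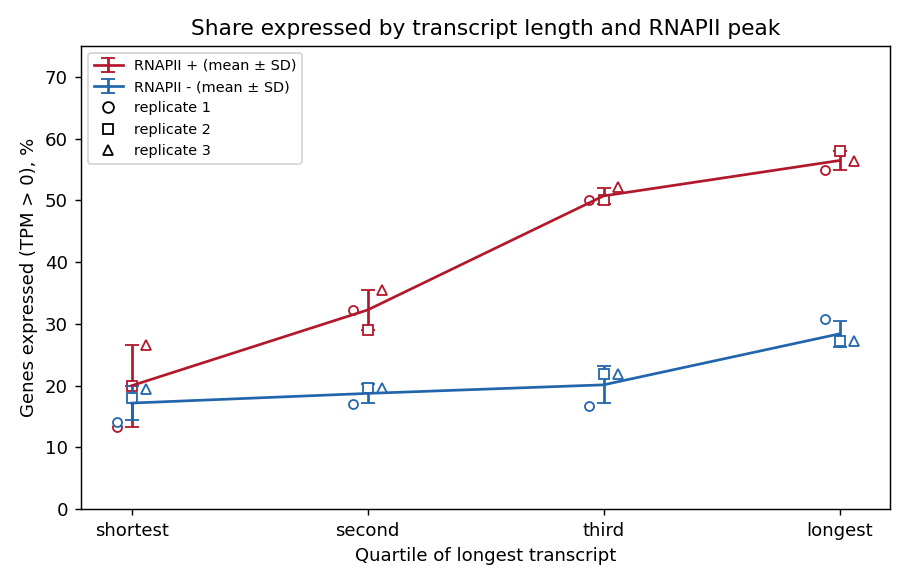
Share of H3K27me3 genes with TPM above 0 (y axis, percent) by quartile of the longest transcript (x axis), for genes with and without an RNAPII peak, as mean and SD over 3 libraries with each replicate as a symbol. The line with RNAPII runs between 20.0 and 56.5% and lies above the line without RNAPII, which runs between 17.2 and 28.4%, with overlapping replicates in the shortest quartile.

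H3K27me3 genes joined to an expressed partner were transcribed somewhat more often than those without one. Of the 571 genes, 349 had 1 partner gene, 222 had 2 or more and the highest number was 9. Transcripts were found for 101 of 327 genes with an expressed partner (30.9%) and 49 of 244 genes with none (20.1%). With partners called in the same library, the difference was 11.5, 8.55 and 9.10 points in replicates 1, 2 and 3 (9.71 ± 1.56), larger than the spread between replicates. The sign was the same in HC and LC genes, and in genes with 1 partner. The difference was 13.0 ± 0.438 points among HC genes, 4.39 ± 3.42 among LC genes and 8.78 ± 0.343 among genes with a single partner. Among genes without RNAPII it was 8.54 ± 2.91 points, and among genes with RNAPII it was 9.44, -0.718 and 11.6 points. The sign was thus mixed with RNAPII present. At TPM of at least 1 in both genes the difference over all genes was 3.69 points.

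For a partner with the full set of active marks (H3K36me3, H3K9ac and RNAPII without H3K27me3), the difference varied between libraries. Of 127 genes with such a partner 39 were expressed, against 62 of 252 genes whose partners were all H3K27me3 genes and 49 of 192 genes with other partners. The difference between genes with a full active partner and genes with H3K27me3 partners alone was 6.91, 1.75 and 10.03 points. RNAPII lay on 40.9% of the genes with a full active partner and on 22.6% of those with H3K27me3 partners alone, and its part in the difference was not tested. Of the 147 pairs of an H3K27me3 gene and a full active gene, both genes were expressed in 46 and the active gene alone in 97. The H3K27me3 gene alone was expressed in 1 pair and neither in 3. Of all 681 full active looped genes, 659 were expressed (96.8%), so few pairs could fall in the last 2 groups.

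Pairs of 2 H3K27me3 genes differed by the number of RNAPII peaks on them. With RNAPII on neither gene (176 pairs), both genes were expressed in 5.30 ± 1.31% and neither in 66.3 ± 1.43% of the pairs (SD, n = 3 libraries). With RNAPII on 1 gene (86 pairs), the shares were 16.7 ± 0.671% and 36.05 ± 1.16%. With RNAPII on both genes (14 pairs), both were expressed in 21.4, 21.4 and 28.6% and neither in 28.6, 21.4 and 14.3% of the pairs in replicates 1, 2 and 3. The share with neither gene expressed was thus lower in each library in the pairs with 1 or 2 peaks than in those with none, while the classes with 1 and 2 peaks differed in the same direction in each library by an amount that 14 pairs leave imprecise. Pairs share genes and are not independent. Single genes were expressed in 46.1% of cases with RNAPII and 18.9% without, which by itself gives the pairs such an order. Whether the pairs depart from these gene shares was not tested.

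**Figure D4:**
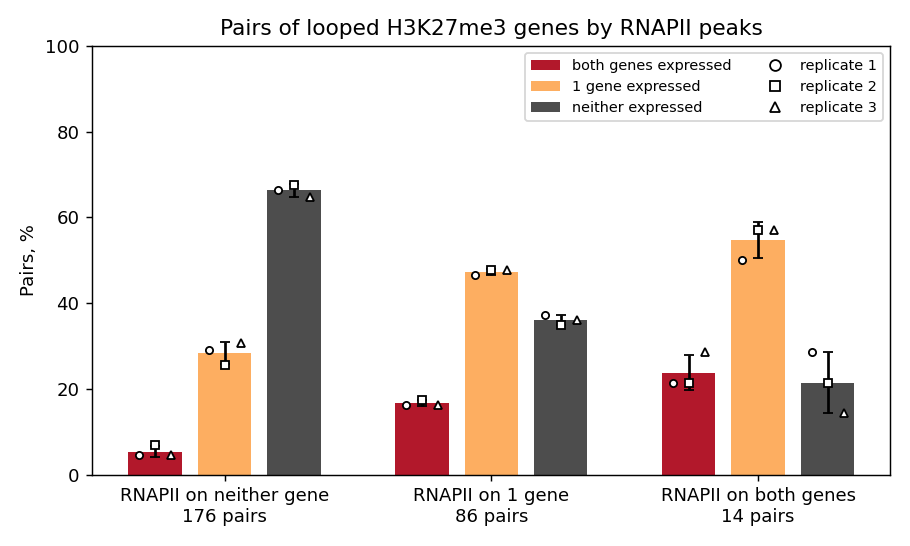
Share of pairs of looped H3K27me3 genes (y axis, percent) in which both, 1 or neither gene had TPM above 0, by the number of genes with an RNAPII peak (x axis, with the number of pairs), as mean and SD over 3 libraries with each replicate as a symbol. Pairs with neither gene expressed make up 66.3% without RNAPII, 36.05% with RNAPII on 1 gene and 21.4% with RNAPII on both.

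Of the pairs of 2 H3K27me3 genes, those with the highest TPM of the lower gene all lay on chromosome 1B. TraesCS1B02G003200 had 0.745, 0.533 and 0.981 TPM and lay 34.3 kb from its partner TraesCS1B02G003400, whose 6.95 to 10.6 TPM stood 3.56 ± 0.65 above it on the log2 scale. TraesCS1B02G012400 had 0.497, 0.606 and 0.298 TPM and differed from its partner TraesCS1B02G014400LC by -0.09 ± 0.26 (log2 of partner over gene), less than the spread between replicates. The same gene was also joined to TraesCS1B02G398500, at 0.404, 0.353 and 0.2403 TPM and some 623587 kb away, which stood at -0.46 ± 0.27 relative to it. In the first of these pairs both genes carried RNAPII without H3K4me3, and in the second both carried RNAPII and H3K4me3.

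Partners outside the H3K27me3 class could differ from it by a wide margin in either direction. TraesCS1A02G165400 had 0.136, 0.228 and 0.0670 TPM, against 37.3, 36.4 and 21.9 TPM for its full active partner TraesCS1A02G164900, 231 kb away, which stood 7.92 ± 0.54 higher on the log2 scale. TraesCS1A02G336100 had 0.0172, 0.0363 and 0.0182 TPM, on 1 or 2 estimated counts, against 10.7, 11.6 and 4.41 TPM for its full active partner TraesCS1A02G337000. TraesCS1A02G150800 had 0.00603 and 0.0258 TPM in replicates 1 and 2 but 1.56 TPM in replicate 3, against 12.5, 12.7 and 8.02 TPM for its partner TraesCS1A02G150600, so that its ratio depends on the library. In each of these 3 pairs the H3K27me3 gene was below its active partner in every library, as their choice for the largest ratio of partner to gene nearly ensures. In the other direction, TraesCS1A02G062100LC, at 0.884 to 1.97 TPM, lay 13.5 kb from the full active gene TraesCS1A02G046100, which had 0.0632, 0.0569 and 0.0947 TPM and stood at -4.36 ± 1.00 relative to it. TraesCS1A02G394500 had 0.688, 0.879 and 0.597 TPM, against 0.0650, 0.0273 and 0.0414 TPM for TraesCS1A02G394300, a partner without H3K27me3 and with an incomplete set of active marks. TraesCS1B02G025900LC had 1.08, 1.54 and 2.04 TPM, against 0.0112, 0.0352 and 0.0119 TPM for TraesCS1B02G201300, which was read at 1, 3 and 1 estimated counts.

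Joined to each other, 345 of the H3K27me3 genes formed 110 networks. Of the 72 networks of 2 genes, both genes were expressed in 5, 1 gene in 26 and none in 41. With 26.3% of all H3K27me3 genes expressed, many such pairs without a transcript follow from the gene share alone. Whether these counts depart from it was not tested. Of the 38 networks of 3 or more genes, 14 had no expressed gene and 2 had all genes expressed, and 54 of their 201 genes (26.9%) were expressed, close to the 26.3% of all H3K27me3 genes. The largest network joined 35 genes on 1B, of which 10 were expressed, 7 carried RNAPII and none had a median above 0.538 TPM. A network of 22 genes on 1B had 6 expressed genes and RNAPII on 0 of them, while a network of 7 genes on 1A between 46189886 and 46310369 had neither a transcript nor an RNAPII peak. By number of partners, 18 of the 42 genes with 4 or more were expressed (38.9 ± 2.75% over libraries), against 12 of 51 genes with 3 (24.8 ± 3.00%), 28 of 129 with 2 (23.0 ± 0.895%) and 92 of 349 with 1 (28.1 ± 2.55%). The 3 genes with the most partners were themselves at or near 0. TraesCS1B02G040000, with 9 partners, had 0.0303, 0.117 and 0 TPM, and TraesCS1B02G039900LC, with 8 partners, was at 0 in all libraries. TraesCS1B02G006900, with 7 partners, had 0.0293, 0.0327 and 0.0311 TPM on 14 or 15 estimated counts per library.

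The H3K27me3 genes were gathered toward the ends of chromosome 1A. They made up 93 of the 148 looped genes (62.8%) in the first 25 Mb and 3 of 94 (3.19%) between 200 and 300 Mb. At the ends (the first 50 Mb and beyond 500 Mb), they were 287 of 890 looped genes, and 69 of the 287 were expressed (24.9 ± 1.72% over libraries). In the middle they were 73 of 755, and 22 of the 73 were expressed (34.7 ± 5.54%). The other looped genes also had a lower share at the ends (68.3 ± 1.58%) than in the middle (79.2 ± 0.61%), a gap in the same direction. RNAPII lay on 26.8% of the H3K27me3 genes at the ends and on 47.9% in the middle, and its part in their difference was not tested. Between the chromosomes the share expressed differed by -2.77, -3.94 and 1.96 points (1A minus 1B), within the spread between replicates.

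Against the other looped genes, the H3K27me3 genes were transcribed less often by 46.7, 44.4 and 45.5 points in replicates 1, 2 and 3 (-45.5 ± 1.12). Against the 244 looped genes with none of the 5 marks in the table, of which 51 were expressed (20.9%), they stood higher by 4.43, 4.90 and 6.18 points. At TPM of at least 1 they did not stand higher, with 4.03% of the H3K27me3 genes, against 4.10% of the genes with none of the marks. For HC genes without RNAPII the direction was the opposite. HC H3K27me3 genes without RNAPII were expressed in 13.3, 16.3 and 19.7% of cases, against 19.2, 21.6 and 22.8% of the 167 HC genes with none of the 5 marks, a difference of -4.71 ± 1.50 points with the same sign in each library. The H3K27me3 genes were longer, with a median transcript of 1125 bases, against 604 bases in the genes with none of the marks, and the part of length in the difference was not tested. For LC genes the same difference was -0.431, 1.20 and 1.84 points, with mixed signs. The HC gap depended on the cut. At least 3 counts were reached by 11.2% of the HC H3K27me3 genes without RNAPII, against 12.0% of the HC genes with none of the marks. At TPM of at least 1, the shares were 1.72 and 4.79%. H3K4me3 lay on 48.1% of these H3K27me3 genes. For the 121 HC H3K27me3 genes with neither RNAPII nor H3K4me3, the difference at TPM above 0 was -4.35 ± 1.01 points.

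An RNAPII peak also went with transcripts less often on H3K27me3 genes than on genes without H3K27me3, H3K36me3 and H3K9ac. Among HC genes with RNAPII, 46.2, 50.4 and 52.9% of the H3K27me3 genes were expressed, against 66.4, 64.5 and 71.0% of the 107 looped genes that lacked these 3 marks. H3K4me3 lay on 67.2% of the H3K27me3 genes with RNAPII, against 49.5% of these 107 genes. The difference was -17.4 ± 3.09 points, larger than the spread between replicates, with a median transcript of 1435 bases in the H3K27me3 genes, against 1358 bases in the others. The RNAPII difference was 33.4 ± 0.626 points in the H3K27me3 genes and 46.0 ± 2.40 points in the genes that lacked these marks. It was lower in the H3K27me3 genes by 13.7, 9.25 and 14.8 points in replicates 1, 2 and 3. This gap depended on the cut. At TPM of at least 1, 8.40% of the HC H3K27me3 genes with RNAPII and 1.72% without it were called. The shares were 12.1 and 4.23% in the HC genes that lacked these marks, so the RNAPII differences lay closer together. The part of chromosome position was not tested. Where H3K27me3 shared an HC gene with H3K36me3 or H3K9ac, 60 of 73 genes with RNAPII were expressed and 4 of 9 without it.

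**Figure D5:**
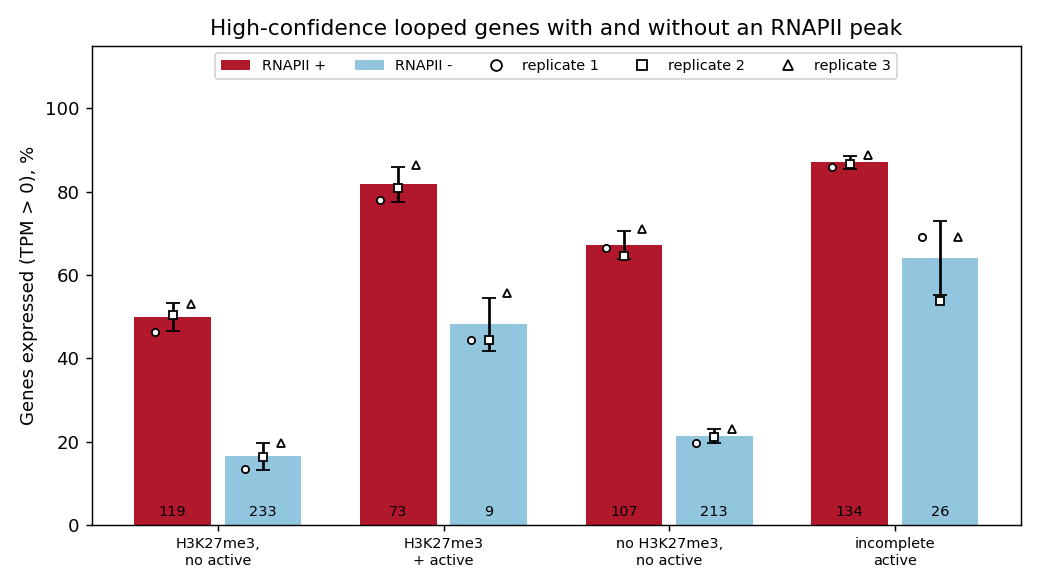
Share of HC looped genes with TPM above 0 (y axis, percent) with and without an RNAPII peak, by histone marks (x axis), active meaning H3K36me3 or H3K9ac and incomplete active meaning either of them without H3K27me3 and without the full set, as mean and SD over 3 libraries with each replicate as a symbol and the number of genes in each bar. With RNAPII, the H3K27me3 genes without active marks reach 49.9% and the genes without H3K27me3 and active marks 67.3%, and without RNAPII they stand at 16.5 and 21.3%.

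The level of single H3K27me3 genes varied between libraries, most often with replicate 3 lowest. Among the 50 genes with at least 10 estimated counts in each library, the ratio of the highest to the lowest TPM had a median of 1.93 and ranged from 1.12 to 13.4. Replicate 3 was the lowest library for 35 of these genes, and the summed TPM of the full active looped genes was also lower there, at 5520, 5820 and 4250 in replicates 1, 2 and 3. How often other genes were lowest in replicate 3 is not given here. Replicate 3 also had the most H3K27me3 genes with reads, 164, against 147 and 159 in replicates 1 and 2. Some genes had their highest value in replicate 3. TraesCS1B02G049100, an HC gene with RNAPII and H3K4me3, had 0.971, 0.291 and 3.90 TPM, a 13.4-fold range, and TraesCS1A02G084600 had a 7.40-fold range with its highest value in replicate 3. TraesCS1A02G264500, by contrast, had a 7.14-fold range with its lowest value in that library.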

How the data were processed

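Wheat shoot RNA-seq of 3 replicates was used, as deposited by the authors. Reads were trimmed with Trimmomatic 0.36 (submitters' processing notes) and quantified with kallisto, whose version, settings and strand option are not given in the sources used here. The deposited tables hold an estimated count per transcript, not normalized, and a TPM computed by the authors from it and the effective length, for 193258 transcripts of a gene set built on IWGSC RefSeq v1.1. By the methods it joins HC genes and the LC genes that overlap histone mark peaks. Reads shared by near-identical copies, frequent among wheat homoeologs, were divided between them in the quantification, so the values of such genes are uncertain. Low counts rest on few reads, and intervals were not given.

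Here, gene values of TPM and estimated counts are sums over the annotated transcripts, and expressed genes are those whose median over the 3 libraries exceeded 0 TPM. Gene pairs, peaks and coordinates (IWGSC RefSeq v1.0) came from the supplied 1999 rows of the study's loop table, merged into 1580 unique pairs. Its remaining rows and its expression columns were not used here. Peaks were called by the authors, and the ChIP-seq and Hi-C data were not analysed here. By the methods, the histone mark ChIP-seq was taken from an earlier study, while RNAPII ChIP-seq was made for this one. The methods do not mention H3K4me3, whose peaks were used as the loop table gives them. A gene had a mark if any of its intervals had it. This concerned 22 H3K27me3 genes with several intervals, 3 of them with H3K27me3 on some intervals only. No H3K27me3 gene overlapped another looped gene. Overlap with other genes was not analysed here.

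Shares were computed in each library alone and are given as mean ± SD over 3 libraries, beside the share by the median. Differences were taken within libraries with the exact sign-flip permutation. No test over genes was made. The H3K27me3 genes, lists and rules were chosen with earlier results of these data known. Genes were named by rule: the 8 highest in TPM with reads in all libraries and at least 10 counts in the median replicate, the 2 highest in each class of RNAPII and H3K4me3 (HC) or RNAPII (LC), the 3 pairs with the highest lower gene, the 3 longest silent HC genes with both peaks, the 3 with the largest ratio over libraries among genes of at least 10 counts in each library, the 3 with the most partners, and the 3 largest and smallest ratios of a partner outside the class. The alternatives were TPM of at least 0.1, 0.5 or 1, at least 3 counts, the mean of the replicates, each replicate left out, each chromosome alone, HC genes alone, genes with a single partner, H3K27me3 on every interval and gene span in place of transcript length. The computation of the RNAPII difference alone was tested on simulated data. There every expressed gene had the same mean count, above the median count of the expressed H3K27me3 genes, so calls at low counts were not tested. Tables were handled with pandas 2.3.3 and numpy 2.4.6 in Python 3.11.15, networks with networkx 3.6.1 and plots with matplotlib 3.10.9.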

Additional observations from a re-analysis of the deposited data

How the results depend on the processing

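All values are percentage points except the share of H3K27me3 genes expressed, in percent, which was 26.3 by the median above 0. The differences were 27.2 for RNAPII (37.1 among HC and 5.34 among LC genes), 4.07 for H3K4me3, 23.8 for length (longest minus shortest quartile), -1.09 for HC minus LC, 10.8 for an expressed partner and -46.5 against other looped genes. At TPM of at least 0.1, 0.5 and 1, the share was 12.1, 5.78 and 4.03. In the same order, RNAPII gave 12.8, 7.20 and 4.27, its HC value 17.9, 11.3 and 6.69 and its LC value 0.0155, -3.12 and -1.49, the length 2.80, -2.10 and -2.10, the partner 7.43, 4.33 and 3.69, and other looped genes -47.8, -41.0 and -36.7. H3K4me3 gave -1.27 and 0.487 at 0.5 and 1, and HC minus LC gave 1.08 and 0.486 at 0.1 and 0.5. With at least 3 counts, the share was 18.7, RNAPII gave 22.4 and 28.3 among HC genes, and HC minus LC gave 5.21. With the mean of the replicates, the share was 35.6, RNAPII gave 26.0 (HC 31.8, LC 13.1), HC minus LC 1.38, the partner 8.53 and other looped genes -42.6.

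Length quartiles were set anew within each chromosome. On chromosome 1A alone, RNAPII gave 32.0 (HC 41.0, LC 13.6), HC minus LC 0.446, the partner 7.25 and other looped genes -48.7. On 1B alone, the share was 28.0, RNAPII gave 18.6 (HC 32.5, LC -8.35), the length 28.3, the partner 16.8 and other looped genes -36.7. Among HC genes alone, RNAPII gave 37.1, the length 29.5 with quartiles set anew among HC genes (18.5 with the quartiles of all H3K27me3 genes), the partner 12.9 and other looped genes -51.1. Gene span gave 30.1 for the length, and H3K27me3 on every interval 36.3 for RNAPII in HC genes.

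Leaving out each replicate, the share ranged from 31.0 to 34.2, RNAPII from 24.4 to 28.7 (HC 31.8 to 36.2, LC 5.62 to 15.3), H3K4me3 from 1.87 to 6.78, the length from 18.9 to 27.3, HC minus LC from -3.05 to 2.81, the partner from 8.52 to 9.39 and other looped genes from -44.7 to -42.5. With 2 libraries the median is above 0 if either value is, so shares rise by construction. The causes of the other shifts were not tested. No paired analysis was possible because the libraries form a single group.

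The direction held under every alternative listed here for RNAPII, its HC value, the partner and other looped genes. It changed for H3K4me3, length, HC minus LC and RNAPII in LC genes. Few reads per gene limit the calls, with 107 of the 150 expressed genes reaching 3 counts. The loop table covers a part of the genome, and peaks are present or absent with no strength.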
